A study of Mus musculus with 2 samples.

Results

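Genes of adenosine and purine signalling were examined in endothelial cells of the normal mouse brain, sorted from C57BL/6 mice as CD31+ Prom1+ and CD31+ Prom1- populations, and hybridized to an array apiece. They were chosen by name, 9 genes in all, and every probe set annotated to 1 of them alone was taken. The annotation used here lists 13 probe sets for 6 of the 9, *Nt5e*, *Entpd1*, *Ada*, *P2rx4*, *P2ry1* and *P2ry2*, out of 18194 genes in all. It lists none for the adenosine receptors *Adora1*, *Adora2a* and *Adora2b*, which were not analysed here. The sources used here give neither the age nor the number of the mice. Both populations are sorted fractions of normal vessels, with no treatment.

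ATP and ADP that leave a cell act on P2 receptors, of which the P2X receptors are ATP-gated cation channels and the P2Y receptors couple to G proteins. Ectonucleotidases on the cell surface take the nucleotides down in steps, CD39 (encoded by *Entpd1*) from ATP and ADP to AMP, and CD73 (*Nt5e*) from AMP to adenosine. Adenosine acts on its own receptors, is carried into cells by nucleoside carriers, and is removed by adenosine deaminase (*Ada*) or adenosine kinase (*Adk*). In blood vessels this chain limits platelet aggregation, sets vessel tone and tightens or loosens the endothelial barrier.

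Signals are given in array medians, where 1 is the median signal of the same array. Since each population was hybridized once, there is no error between replicates, no p-value is given and no difference could be checked in a second sample. The SD of the log2 ratio between probe sets of the same gene, 0.54 over 3930 genes, describes how far they disagree within this pair of arrays. It holds neither the spread between animals nor an error shared by all probe sets of a gene. A signal under a floor of 1.67 array medians was counted as not measured and was raised to the floor for a ratio, which is then a bound. *Prom1* had 159 array medians in the array labelled Prom1+ and 196 in the array labelled Prom1-, a log2 ratio of -0.30 that was smaller than the SD between probe sets of a gene and was -0.03 after loess correction of the shift with signal. The transcript of the sorting marker was thus not higher in the array labelled Prom1+, and it does not bear out the labels. The sort itself used an antibody to the Prom1 protein. The arrays are called here by their labels, and the study's quantitative PCR of selected transcripts of both populations was not used here. *Pecam1*, which encodes CD31, had 69.2 array medians in Prom1+ and 48.2 in Prom1- endothelium.

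With signals raised to the floor, the only member with probe sets past 2-fold was *Entpd1*. Its upstream sequence is shown with that of *Ada*, the only member measured that had no higher probe set in the array labelled Prom1+. These are the 250 bases before each start that RefSeq gives in the GRCm38.p6 assembly, 5′ to 3′. Capitals mark matches, on either strand, to 4 short motifs, the GC box of SP1 (GGGCGG), an ETS core (CCGGAA), the short site of the cyclic AMP response element (TGACG) and the core of the hypoxia response element (GCGTG). The first *Entpd1* window is chr19:40612116-40612365 on the plus strand, the second is chr19:40659520-40659769 on the plus strand, and the *Ada* window is chr2:163750240-163750489 on the minus strand.
Entpd1, first start: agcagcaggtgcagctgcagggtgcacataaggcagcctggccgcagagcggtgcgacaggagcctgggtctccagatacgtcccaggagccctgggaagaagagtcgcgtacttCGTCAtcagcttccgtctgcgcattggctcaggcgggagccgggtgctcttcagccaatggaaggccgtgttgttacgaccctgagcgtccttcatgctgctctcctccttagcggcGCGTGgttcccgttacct
Entpd1, second start: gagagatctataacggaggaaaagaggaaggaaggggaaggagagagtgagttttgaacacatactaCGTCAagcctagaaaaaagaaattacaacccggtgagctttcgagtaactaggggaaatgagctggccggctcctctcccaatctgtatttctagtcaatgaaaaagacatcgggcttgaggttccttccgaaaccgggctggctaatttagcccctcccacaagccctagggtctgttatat
Ada: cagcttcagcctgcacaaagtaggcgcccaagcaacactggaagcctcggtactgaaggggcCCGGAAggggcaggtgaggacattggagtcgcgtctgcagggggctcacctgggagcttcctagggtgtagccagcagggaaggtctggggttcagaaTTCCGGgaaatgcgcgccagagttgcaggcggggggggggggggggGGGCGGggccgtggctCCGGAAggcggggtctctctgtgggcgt
The cyclic AMP site lay 135 bases before the first *Entpd1* start and 183 bases before the second. The hypoxia core lay 18 bases before the first start. The *Ada* window held 1 GC box, 44 bases before the start, and 3 ETS cores, at 188, 90 and 28 bases. No marked motif overlapped another in these 3 windows. Over 32851 promoter windows of the same length, 17.8% held the cyclic AMP site, 28.2% the hypoxia core, 32.7% the GC box and 12% the ETS core. These matches are descriptions of the letters. Both genes shown were picked by their array values, the windows of the other members are not shown, and no link between motifs and array values was tested.

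*Entpd1* was measured on both arrays by each of its 3 probe sets, all of them higher in the array labelled Prom1+. The brightest, 1453586_at, had 25.1 array medians in Prom1+ endothelium and 16.1 in Prom1- endothelium, 1.55-fold higher. Probe set 1423326_at had 14.6 array medians in Prom1+ and 7.05 in Prom1- endothelium, 2.07-fold higher. Probe set 1450939_at had 9.30 in Prom1+ endothelium and 4.56 in Prom1- endothelium, 2.04-fold higher. The ratios therefore lay just past 2-fold or under it, and the 1000 measured probe sets nearest in mean signal had median folds of 1.78, 1.91 and 1.76. At least 2-fold higher among those neighbors were 35.9%, 44.9% and 41.8%, so *Entpd1* differed about as much as other transcripts of its brightness. After loess correction of the shift with signal, its log2 ratios were -0.20, 0.14 and 0.16, each smaller than the SD between probe sets of a gene.

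*Nt5e* was not measured in either population. Its probe set 1428547_at had 0.560 array medians in Prom1+ endothelium and 0.538 in Prom1- endothelium. Probe set 1459023_at had 0.531 in Prom1+ and 0.299 in Prom1- endothelium. The third, 1422974_at, had 0.0296 in Prom1+ and 0.206 in Prom1- endothelium, and no fold is given for any of them. The 27 *Bacillus* control probe sets, for which the cells hold no transcript, reached no more than 0.234 array medians in Prom1+ endothelium and 0.276 in Prom1- endothelium. The first and second *Nt5e* probe sets were above that limit on both arrays and the third was below it on both. Whether the transcript is present at a low level was thus not detectable by these signals.

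*Ada*, which turns adenosine into inosine, has a single probe set, 1417976_at. It had 0.903 array medians in the array labelled Prom1+, under the floor, and 2.52 in the array labelled Prom1-. *Ada* was therefore at least 1.5-fold lower in Prom1+ endothelium, a bound that does not reach 2-fold. Its log2 ratio without the floor was -1.48, past 2-fold lower. Under 5 other scalings of the arrays the floored log2 ratio ran from -0.86 to -0.08.

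Of the P2 receptors among the members, *P2rx4* and *P2ry1* were measured and *P2ry2* was not. *P2rx4*, an ATP-gated channel that mediates endothelial responses to blood flow in mice, has 4 probe sets. The brightest, 1425525_a_at, had 30.5 array medians in Prom1+ endothelium and 23.1 in Prom1- endothelium, 1.32-fold higher. Probe set 1452527_a_at had 8.26 in Prom1+ and 6.58 in Prom1- endothelium, 1.26-fold higher. Both differences were smaller than the SD between probe sets of a gene and smaller than the median folds of their neighbors in signal, 1.72 and 1.76. Probe set 1446429_at pointed the other way, at 0.565 array medians, below the floor, in Prom1+ endothelium and 2.29 in Prom1- endothelium, at least 1.37-fold lower. The fourth, 1441772_at, had 0.845 array medians in Prom1+ and 0.457 in Prom1- endothelium and was not measured.

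*P2ry1*, a receptor for ADP, is covered by 1421456_at alone. It had 3.60 array medians in Prom1+ endothelium and 2.40 in Prom1- endothelium, 1.5-fold higher, and its neighbors in signal had a median fold of 1.54. *P2ry2*, a receptor for ATP and UTP, is covered by 1450318_a_at. It had 1.00 array median in Prom1+ endothelium and 0.129 in Prom1- endothelium, both under the floor, so no fold is given. Only the first of the 2 signals lay above the *Bacillus* controls of its array.

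**Figure D1:**
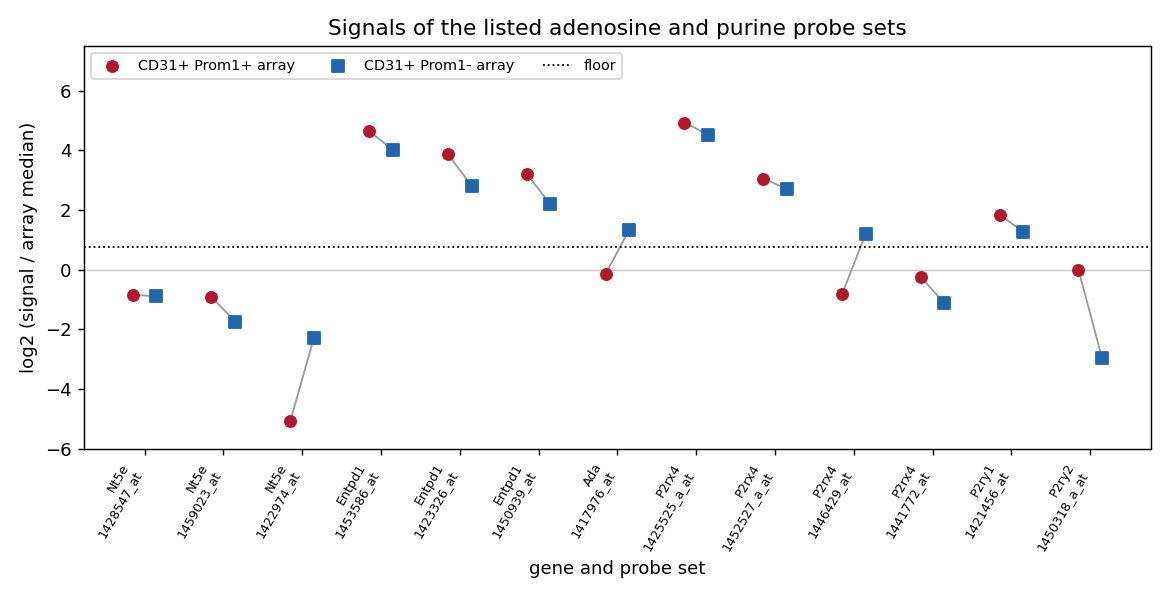
Signals of the 13 listed member probe sets, as log2 of multiples of the array median. Circles are the CD31+ Prom1+ array, squares the CD31+ Prom1- array, lines join the 2 arrays for 1 probe set and the dotted line is the floor of 1.67 array medians. The 3 *Entpd1* probe sets and 2 of *P2rx4* lie well above the floor with the circle higher, while *Nt5e* and *P2ry2* lie under it throughout.

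Of the 13 member probe sets, both arrays measured 6, a single array measured 2 and neither measured 5. Of the 8 measured, 2 read higher in Prom1+ endothelium by 2-fold or more, against 28.0% of all 19003 measured probe sets of 1 gene, and 0 were at least 2-fold lower, against 4.13%. With each gene taken by its brightest probe set, 4 of the 6 members were measured, 0 of them 2-fold higher and 0 lower, where 28.2% of 10793 measured genes were higher and 4.77% lower. The median fold of the 4 measured members was 1.41, and that of all measured genes was 1.58. Most transcripts thus read higher in Prom1+ endothelium, and this split depended on the scaling. After loess, 599 genes were higher and 849 lower, in place of 3045 and 515. Quantile normalization gave 689 higher and 841 lower, trimmed means set equal gave 875 and 857, and hybridization controls set equal gave 8644 and 189. With endothelial marker genes set equal there were 1667 higher and 631 lower.

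The sign of the smaller ratios moved with the scaling. Over the 5 scalings, *Entpd1* by its brightest probe set ran from -0.20 to 1.66 on the log2 scale and *P2rx4* from -0.38 to 1.43, each with both signs. *P2ry1* ran from 0.04 to 1.61, always above 0, and *Ada* stayed below 0 in all 5. *Ada* had -1.48 without the floor. With the hybridization controls set equal all log2 ratios rose by 1.02, too little to turn that sign. The highest value of these 4 genes came each time with the hybridization controls set equal.

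**Figure D2:**
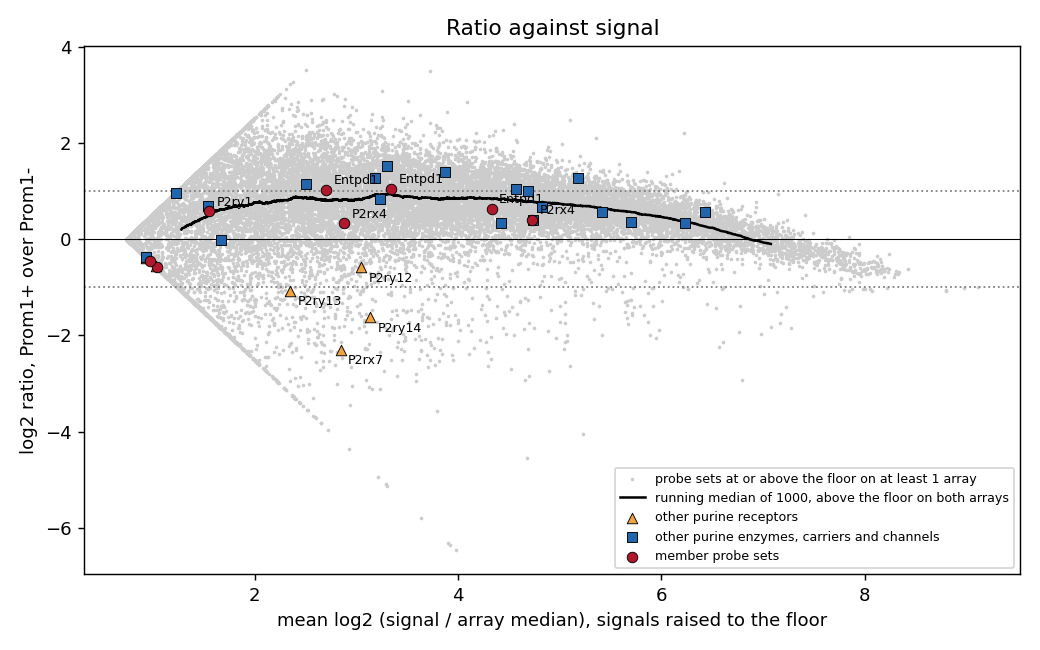
The log2 ratio, Prom1+ over Prom1-, plotted against mean log2 signal, both from signals raised to the floor. Grey points are measured probe sets, the black line follows the median of 1000 neighboring probe sets that both arrays measured, circles are member probe sets, triangles other purine receptors and squares other purine genes, each by its brightest probe set. The circles of *Entpd1* and *P2ry1* lie close to the black line, those of *P2rx4* below it, and the labelled triangles lie below 0.

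Beyond the members, a list of 44 other genes of purine handling was read, of which 39 have a listed probe set and 25 were measured. In Prom1+ endothelium 7 of the 25 were higher by 2-fold or more and 3 were lower by as much, beside 28.2% and 4.77% of all genes. Their median log2 ratio was 0.55, against 0.66 for all measured genes. The 5 scalings moved that median between -0.07 and 1.58, the number of higher genes between 0 and 18 and the number of lower genes between 1 and 4.

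Other enzymes that act on nucleotides outside the cell or in the secretory pathway had 4 genes measured, of which 2 were at least 2-fold higher and 0 lower, beside 28.2% and 4.77% of all genes. The number higher was 0 with trimmed means set equal, by quantile normalization, by loess and with the mean over probe sets, 1 with endothelial markers set equal and 4 when the hybridization controls were made equal. *Entpd5*, a nucleoside diphosphatase of the endoplasmic reticulum, had 23.8 array medians in Prom1+ and 8.99 in Prom1- endothelium by its brightest probe set, 2.65-fold higher. Its 3 other measured probe sets were 4.83-fold, 1.18-fold and at least 1.21-fold higher. *Enpp4*, which cleaves diadenosine polyphosphates on brain endothelium, had 36.6 array medians in Prom1+ and 18.2 in Prom1- endothelium, 2.01-fold higher. Its second probe set had 7.65 in Prom1+ and 4.84 in Prom1- endothelium, under 2-fold. The phosphatase *Alpl*, a marker of the blood-brain barrier that can also form adenosine from AMP, had 104 in Prom1+ endothelium and 71.1 in Prom1- endothelium. *Entpd6* had 3.17 array medians in Prom1+ and 3.19 in Prom1- endothelium. *Entpd2*, *Entpd3*, *Entpd8* and *Enpp3* were not measured.

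Of 3 channels that release ATP, 2 gave only bounds, neither of which reached 2-fold, and their differences may be larger. *Panx1* had 3.25 array medians in Prom1+ endothelium and 0.949 array medians, below the floor, in Prom1- endothelium, at least 1.94-fold higher. *Panx2* had 0.138 array medians, below the floor, in Prom1+ and 2.17 in Prom1- endothelium. With a floor of 50 on the target scale, in place of 100, the log2 ratio of *Panx1* was 1.78 and the bound for *Panx2* was -1.37, both past 2-fold, and by loess that of *Panx1* was 1.01. *Gja1*, the connexin 43 gene, had 84.5 in Prom1+ and 67.0 in Prom1- endothelium by its brightest probe set, and astrocytes express it as well.

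Of the carriers, *Slc29a4*, which moves adenosine and monoamines, had 8.49 array medians in Prom1+ and 3.82 in Prom1- endothelium, 2.23-fold higher. *Slc29a3* had 12.6 array medians in Prom1+ and 7.04 in Prom1- endothelium. *Slc29a1*, the main equilibrative adenosine carrier, had 3.72 in Prom1+ and 2.30 in Prom1- endothelium, 1.62-fold higher. All 3 were near the median of probe sets of like signal, with loess log2 ratios of 0.28, -0.07 and 0.20. *Slc29a2* and *Slc28a3* were not measured.

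A list of enzymes that handle adenosine and nucleotides inside the cell, which also holds the surface peptidase gene *Dpp4*, had 9 genes measured, of which 4 were at least 2-fold higher and 0 lower, beside 28.2% and 4.77% of all genes. The number higher was 0 with trimmed means set equal, by quantile normalization and by loess, 1 with endothelial markers set equal, 2 with the mean over probe sets and 9 with the hybridization controls set equal. *Adk*, which returns adenosine to AMP, had 56.3 array medians in the array labelled Prom1+ and 23.4 in the array labelled Prom1-, 2.41-fold higher. A second probe set of *Adk* had 18.3 in Prom1+ and 5.41 in Prom1- endothelium, another reached the floor in Prom1+ endothelium alone, and its other probe sets were not measured. The AMP deaminase *Ampd3* had 14.1 array medians in Prom1+ and 5.84 in Prom1- endothelium, 2.41-fold higher, and its relative *Ampd2* had 30.6 array medians in Prom1+ and 23.2 in Prom1- endothelium. *Nt5c3*, a cytosolic nucleotidase that acts mainly on pyrimidine nucleotides, had 16.6 in Prom1+ and 5.83 in Prom1- endothelium, 2.85-fold higher. *Nt5c2* had 34 array medians in Prom1+ and 16.5 in Prom1- endothelium, 2.05-fold higher by its brightest probe set, and its 3 other measured probe sets were also past 2-fold. After loess the log2 ratios were 0.58 for *Adk*, 0.37 for *Ampd3*, 0.61 for *Nt5c3* and 0.23 for *Nt5c2*, each above 0 and under 2-fold. *Dpp4*, which binds adenosine deaminase on the cell surface in humans, had 58.9 in Prom1+ and 45.8 in Prom1- endothelium, and *Pnp* had 51.9 array medians in Prom1+ and 35.1 in Prom1- endothelium.

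**Figure D3:**
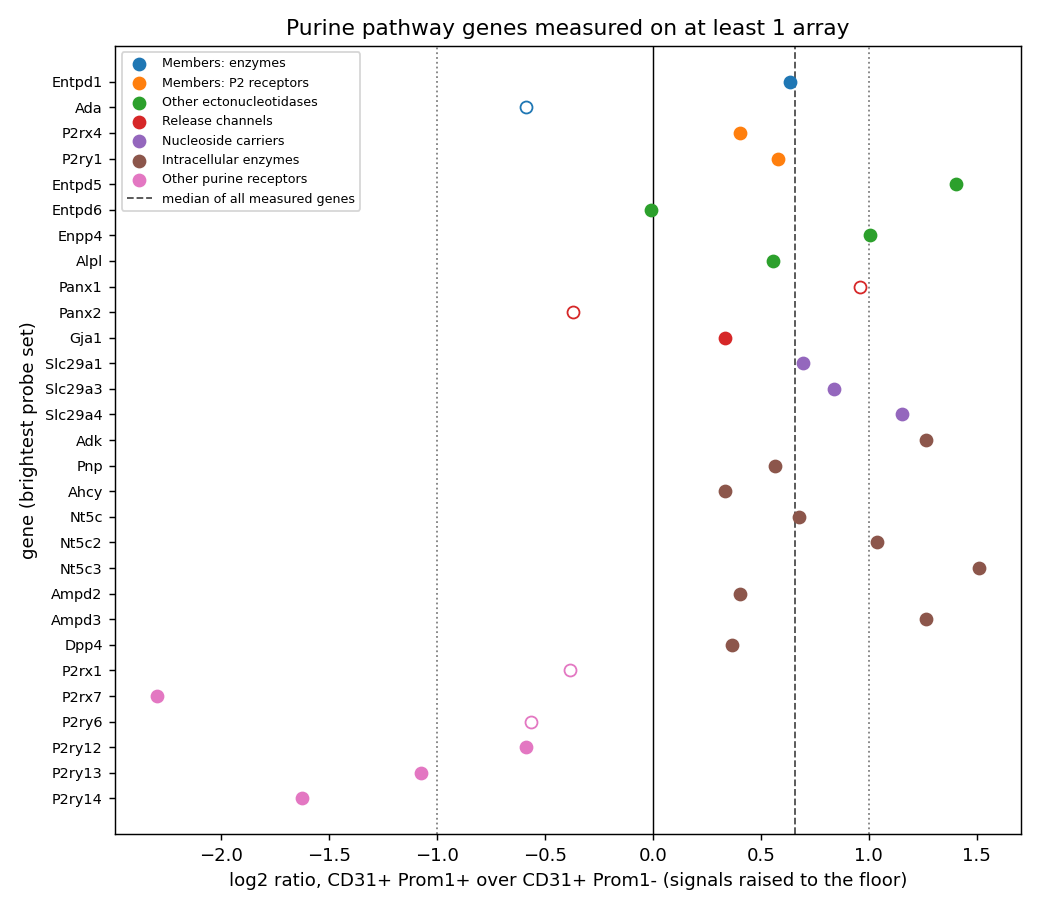
The log2 ratio, Prom1+ over Prom1-, of each purine gene measured on at least 1 array, by its brightest probe set, with signals raised to the floor. Filled points reached the floor on both arrays, open points on 1 array and are bounds, dotted lines mark 2-fold and the dashed line is the median of all measured genes, 0.66. The 6 other purine receptors at the bottom lie below 0, where the open points of *P2rx1* and *P2ry6* had to lie because only the Prom1- array reached the floor.

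The other purine receptors that were measured read lower in Prom1+ endothelium by their brightest probe sets. Of 12 listed, 6 were measured, 0 were at least 2-fold higher and 3 were at least 2-fold lower in the array labelled Prom1+, with a median log2 ratio of -0.83. *P2rx1* and *P2ry6* reached the floor in the Prom1- array alone, so their floored ratios could only lie below 0. With a floor of 200 on the target scale neither was measured. Over all 10793 measured genes, the shares past 2-fold were 28.2% higher and 4.77% lower, and the median log2 ratio was 0.66. The 3 lower receptors include *P2rx7*, whose probe sets disagree. With *P2rx7* taken by its other measured probe set, a choice made after seeing the data, 1 receptor was higher, 2 were lower and the median was -0.58. With the mean over probe sets 4 were measured and 2 were lower. Under the 5 scalings the median by brightest probe sets stayed below 0, between -1.70 and -0.05, and 1 to 4 genes were lower. *P2ry14*, a receptor for UDP-glucose, had 5.02 array medians in Prom1+ and 15.5 in Prom1- endothelium, 3.09-fold lower. *P2ry13*, an ADP receptor of microglia, had 3.52 array medians in Prom1+ and 7.41 in Prom1- endothelium, 2.11-fold lower. *P2ry12*, the ADP receptor that marks microglia and platelets, had 6.75 in Prom1+ and 10.1 in Prom1- endothelium, 1.5-fold lower, and was above 0 in 1 of 5 scalings. *P2ry6*, a receptor for UDP, had 0.564 array medians, below the floor, in Prom1+ and 2.48 in Prom1- endothelium.

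*P2rx7*, the ATP-gated channel of macrophages, gave opposite answers by its probe sets. Its brightest, 1419853_a_at, had 3.25 array medians in the array labelled Prom1+ and 16.0 in the array labelled Prom1-, 4.92-fold lower. The other measured one, 1439787_at, had 7.75 in Prom1+ and 3.30 in Prom1- endothelium, 2.35-fold higher. The gene-level call for *P2rx7* therefore rests on which probe set stands for it. *P2rx1*, the channel of platelets and smooth muscle, had 0.994 array medians, below the floor, in Prom1+ and 2.19 in Prom1- endothelium. *Adora3*, *P2rx2*, *P2rx3*, *P2rx5*, *P2rx6* and *P2ry4* were not measured.

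Markers of other cell types differed as well. The shares of all measured genes to read beside their counts are 28.2% at least 2-fold higher and 4.77% at least 2-fold lower. Of 11 microglial and macrophage markers, 10 are listed and 9 were measured, of which 8 were at least 2-fold lower in the array labelled Prom1+, with a summed signal of 99.7 array medians in Prom1+ and 237 in Prom1- endothelium. *Csf1r* had 33.6 array medians in Prom1+ and 71.5 in Prom1- endothelium and *C1qb* had 31.8 array medians in Prom1+ and 78.7 in Prom1- endothelium, and *Itgam* was under the floor on both. Of 10 mural cell markers, led by *Acta2* and *Rgs5*, 8 were at least 2-fold lower, with sums of 284 in Prom1+ and 907 in Prom1- endothelium. Of 8 blood leukocyte and platelet markers listed, 3 were measured and 1, *Pf4*, was at least 2-fold lower, with sums of 6.22 array medians in Prom1+ and 12 in Prom1- endothelium. All 3 reached the floor in the Prom1- array alone, so their floored ratios could only lie below 0. The 12 endothelial markers summed to 1471 in Prom1+ and 1515 in Prom1- endothelium, with 1 of them at least 2-fold higher. Of fibroblast and meningeal markers 4 of 7 measured were at least 2-fold lower, with sums of 51.2 in Prom1+ and 337 in Prom1- endothelium. Most of these sums was *Ptgds*, with 40.3 in Prom1+ and 305 in Prom1- endothelium, and *Pdgfra* alone of those measured read higher. *Pdgfra* reached the floor in the Prom1+ array alone, and *Col1a1* and *Slc6a13* in the Prom1- array alone. Of neuronal markers 3 of 4 measured were at least 2-fold lower, with sums of 2.64 in Prom1+ and 25.6 in Prom1- endothelium. All 4 reached the floor in the Prom1- array alone, so their folds are bounds and their direction was fixed by the floor. Astrocyte markers summed to 110.3 in Prom1+ and 110.6 in Prom1- endothelium, with 1 of 5 at least 2-fold lower. Of these sums *Gja1* gave 84.5 in Prom1+ and 67.0 in Prom1- endothelium. It alone of the measured astrocyte markers had a log2 ratio above 0, and *Slc1a2* among them reached the floor in the Prom1- array alone. Of 4 oligodendrocyte markers measured, 1 was higher and 2 lower, with sums of 215 in Prom1+ and 437 in Prom1- endothelium. The marker counts moved with the scaling. With the hybridization controls set equal 0 of 9 microglial and 3 of 10 mural markers were at least 2-fold lower and 9 of 12 endothelial markers were higher, while under the other 4 scalings all 9 microglial and 8 or 9 mural markers were lower and 0 endothelial markers were higher. The part of other cells in the receptor signals, and in those of *Entpd1* and *P2rx4*, which microglia also express, was not tested. In sorted populations measured as a whole, fewer cells of a type and less RNA per cell cannot be told apart.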

How the data were processed

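Total RNA of CD31+ Prom1+ and CD31+ Prom1- cells was amplified, labeled with biotin and hybridized to Affymetrix mouse arrays, 1 per population. The authors scaled the MAS5 signals (named in the submitters' processing notes, with no version) to a target of 500 on each chip and used GeneSpring for normalization. What was deposited is the log2 of signal over the array's own median, since the median is 0 and the lowest value -6.64 on both arrays. Detection calls were not used here, and the number of arrays limits the precision.

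Ratios are Prom1+ over Prom1-. The floor, 100 on the target scale, equals 1.67 array medians if the trimmed mean of each array (2% off each end, averaged over both arrays) is taken as that target. Of 45101 probe sets, 44.6% of the Prom1+ and 42.9% of the Prom1- signals reached it. Calls were folds of at least 2 between floored signals. A gene was named where the platform annotation gives 1 symbol (34958 probe sets, against 932 with several and 9211 not listed), updated through RefSeq identifiers for 34754, and was represented by its brightest probe set. The 1000 probe sets nearest in mean log2 signal and a loess with span 0.2 describe the shift between arrays. Promoter windows come from RefSeq, GRCm38.p6. All 6 listed members had a window. The members, lists and rules were chosen with earlier results of these data known. Named are all members, every other purine gene measured and past 2-fold, the brightest of each list, and leading markers, and any further gene was picked with its values known. Alternatives tried were floors of 50, 200 and none, folds of 1.5 and 3, 5 scalings, the mean over probe sets, and leaving out _x_at and _s_at probe sets, and, added after seeing the data, *P2rx7* by its other probe set. The rule and the loess were checked on arrays made with known answers. Changes past the threshold were put on genes well above the floor, with less noise than between probe sets of a gene. The loess was checked on a trend without noise. Ratios near 2-fold and signals near the floor were not covered by that check. Python 3.11.15, numpy 2.4.6, pandas 2.3.3, statsmodels 0.14.6 and matplotlib 3.10.9 were used.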

Additional observations from a re-analysis of the deposited data

How the results depend on the processing

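No paired analysis was possible because each population has 1 array, and for the same reason no array could be left out. The member counts by gene, 0 higher and 0 lower, were 1 higher with no floor or at 1.5-fold and 3 higher with the hybridization controls set equal, and 1 lower with a floor of 50, with no floor or at 1.5-fold. The 2 member probe sets higher became 0 at 3-fold, with trimmed means or endothelial markers set equal, and after quantile normalization or loess, and 6 with the hybridization controls set equal. Member probe sets lower, 0 as reported, were 2 with a floor of 50, 3 with none and 1 at 1.5-fold.

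Of the other purine genes, 7 as reported, 11 were higher with no floor or at 1.5-fold, 0 at 3-fold, with trimmed means set equal or by quantile normalization, 1 by loess, 2 with endothelial markers set equal or with the mean over probe sets, and 18 with the hybridization controls set equal. Lower ones, 3 as reported, were 6 with a floor of 50, 14 with none and 1 with the hybridization controls. Their median log2 ratio was 0.011 with trimmed means set equal, -0.024 by quantile normalization, -0.069 by loess and 1.58 with the hybridization controls.

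Over all genes, 3045 higher as reported, the count was 5124 with no floor, 5891 at 1.5-fold, 712 at 3-fold, 875 with trimmed means, 1667 with endothelial markers, 8644 with hybridization controls, 689 by quantile and 599 by loess. Lower genes, 515 as reported, were 827, 301 and 3388 with floors of 50, 200 and none, 815 at 1.5-fold, 256 at 3-fold, 857 with trimmed means, 189 with hybridization controls, 841 by quantile, 849 by loess and 333 with the mean over probe sets. The scalings left the median log2 ratio of probe sets measured by both arrays between 0.01 and 1.66, and the cause of the shift was not tested.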
